A study of Mus musculus with 4 samples.

Results

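The 10 genes followed here were read through the oligodendrocyte lineage of the adult mouse hypothalamus, and are Fyn, Tcf7l2, Enpp6, Bmp4, Gpr17, Itpr2, Tmem163, Bcas1, Casr and Rras2. They were chosen by name as 10 of the 32285 measured genes because they are known for the step between the precursor and the myelinating cell, and they were read in 2110 nuclei annotated as oligodendrocyte precursor cells (OPCs) and 6135 nuclei annotated as oligodendrocytes, out of 56386 nuclei. Hypothalami of adult male mice on the C57/BL6NCr background were compared between wild type (WT) and TRα1+m, which is heterozygous for a point mutation that lowers the affinity of thyroid hormone receptor α1 for its hormone. Each of 4 single-nucleus libraries held nuclei of 3 mice of a genotype pooled, with a WT and a TRα1+m library in each of 2 experimental repeats. Every comparison of genotypes therefore rests on 2 libraries against 2, and the mutation, being a point mutation carried in all cells, cannot be checked from the level of the receptor transcript.

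OPCs are dividing cells that carry the growth factor receptor Pdgfra. When they leave the cycle they pass through a short premyelinating stage before the genes of compact myelin come up, and part of these cells die at that stage. Fyn is a Src family kinase that acts in process outgrowth, Tcf7l2 is a transcription factor of the Wnt pathway that the stage depends on, and Bcas1 is a myelin-associated protein of early myelinating cells. Enpp6 is a choline phosphodiesterase, Gpr17 a receptor that holds cells before maturation, and Itpr2 a calcium release channel. Bmp4 is a secreted ligand that acts against maturation, Casr the calcium-sensing receptor, Tmem163 a zinc transporter and Rras2 a Ras-related GTPase. Thyroid hormone is a classical signal for oligodendrocyte maturation, which is the reason for reading these genes in the mutant.

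The values are unique molecular identifiers (UMIs), summed over the nuclei of a cluster in a library and scaled to a total of 1000000 UMIs (CPM). OPC sums held 1314390 to 1616000 UMIs and oligodendrocyte sums 2525236 to 2713480. Median UMIs per nucleus were 2221 to 2984 in OPCs and 1493 to 1811.5 in oligodendrocytes, higher in repeat 2 for both genotypes. The cluster names matched their markers. All 8 OPC markers together reached 13345 to 15078 CPM in OPCs and 201 to 392 CPM in oligodendrocytes, and 8 oligodendrocyte markers reached 10354 to 23926 CPM in oligodendrocytes and 1386 to 1825 CPM in OPCs. No marker of either list was at 0. Pairs of libraries shared 44 to 64 barcodes.

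Of the sequences upstream of these genes, the RefSeq table of start sites (GRCm38.p6, 250 bases before to 50 after each start) held 9 promoters of 8 of the genes. Short stretches are shown for Enpp6, Tcf7l2 and Fyn, which are described between genotypes in OPCs below, with a match to the letters bound by lineage factors in capitals, ACAATG for SOX proteins and CTTTGA for TCF proteins. The first lies at chr8:46986656-46986685 on the plus strand, 219 bases before the start of Enpp6, the second at chr19:55741695-55741724 on the minus strand, opposite to Tcf7l2 and 103 bases before its start, and the third at chr10:39369691-39369720 on the plus strand, 96 bases before a start of Fyn.
Enpp6: cgtttaccaaaaACAATGaggttgtatttt
Tcf7l2: cgggggcggccaACAATGatcctttgggcg
Fyn: cctcagcgggccCTTTGAtagggcagaaag
Counted on both strands, ACAATG was found in promoters of Enpp6 and Tcf7l2 and in 12.6% of all 32851 promoters, CTTTGA in a promoter of Fyn and in 16.0% of all, and the related ACAAAG in promoters of Casr and Tcf7l2 and in 18.7% of all. The half-site of thyroid hormone receptors, AGGTCA, was in 0 of the 9 promoters and in 16.3% of all. The matches describe letters in these windows only.

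The 10 genes fell into groups by where they were read. Between OPCs and oligodendrocytes, Gpr17, Itpr2 and Bmp4 were read mostly in OPCs. Gpr17 had 130 and 412 CPM in the WT OPC libraries and 166 and 432 CPM in the TRα1+m OPC libraries, in the order repeat 1 and repeat 2, against 4.36 to 9.65 CPM in oligodendrocytes. Pooled over libraries its level was 37.0-fold higher in OPCs, that of Bmp4 15.7-fold and that of Itpr2 15.0-fold. Bmp4 was scarce even so, with 8.04 to 10.7 CPM and 11 to 14 UMIs per OPC library. In oligodendrocytes it had 3 UMIs in each of 2 libraries and 0 in the WT repeat 2 and TRα1+m repeat 1 libraries, where 3 UMIs would give 1.11 CPM.

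Fyn, Tcf7l2, Tmem163 and Rras2 were higher in OPCs in all 4 libraries, when pooled by 4.05-fold, 3.33-fold, 2.91-fold and 2.98-fold. In the WT repeat 2 library Rras2 was almost level, at 9.08 CPM in OPCs and 8.48 CPM in oligodendrocytes, on 12 and 23 UMIs. Bcas1 was at similar levels in both clusters, with 411 to 590 CPM in OPCs and 306 to 511 CPM in oligodendrocytes. Enpp6 alone of the 10 was higher in oligodendrocytes in every library, 1.66-fold when pooled, at 81.4 to 188 CPM against 38.4 to 126 CPM in OPCs. Of 13053 genes tested in either cluster, 25.9% were higher in OPCs and 34.9% lower in OPCs in all 4 libraries. Since the clusters had been built from these same counts, these ratios are descriptions without a test. Casr, with 4 UMIs over all oligodendrocytes and 6 over all OPCs, was barely read in the lineage and gives no comparison. In the main neuronal cluster it had 261 UMIs, at 1.35 to 1.64 CPM.

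**Figure D1:**
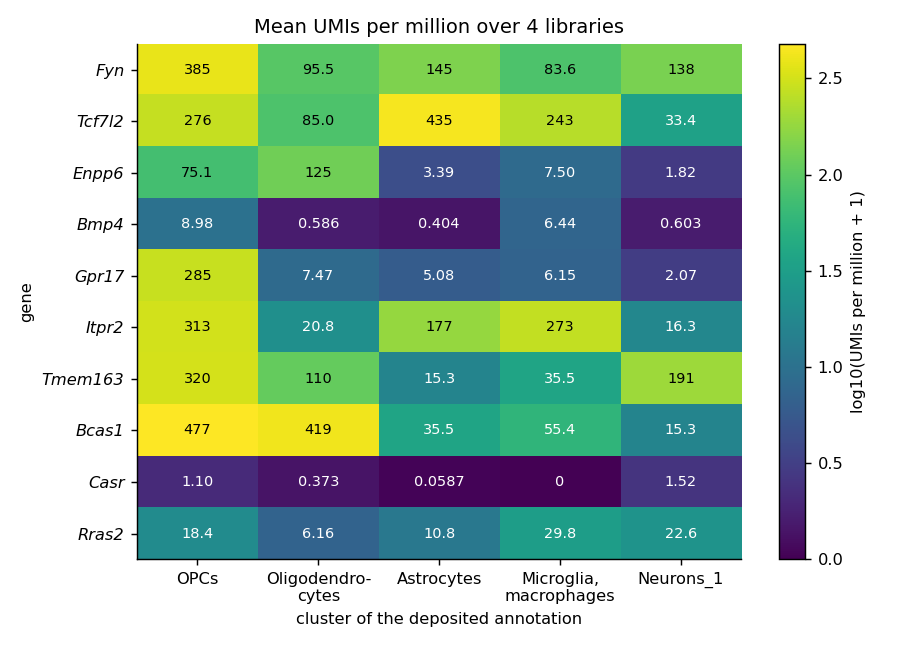
Mean CPM over 4 libraries (number in each cell, colour on a log10 scale after adding 1) for the 10 genes in 5 clusters of the deposited annotation. Gpr17 is at 285 in OPCs and at 7.47 or below in the other clusters shown, while Tcf7l2 is highest in astrocytes at 435 and Enpp6 highest in oligodendrocytes at 125.

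Outside the lineage, most of these genes were not specific to it. Tcf7l2 averaged 435 ± 90.0 CPM in astrocytes and 243 ± 79.1 CPM in microglia and macrophages (SD, n = 4 libraries), around its OPC level of 276 ± 118 CPM. Itpr2 was at 273 ± 46.3 CPM in microglia and macrophages against 313 ± 32.4 CPM in OPCs, and Tmem163 at 191 ± 18.6 CPM in the main neuronal cluster. Bmp4 was at 6.44 ± 5.29 CPM in microglia and macrophages, on 18 UMIs, against 8.98 ± 1.21 CPM in OPCs. Rras2 was as high in the neurons (22.6 ± 2.25 CPM) as in OPCs (18.4 ± 6.74 CPM). By contrast, Enpp6 and Gpr17 were at 3.39 and 5.08 CPM in astrocytes, Bcas1 at 35.5 CPM. Per kilobase of gene span, the levels in OPCs ran from 42.9 CPM for Gpr17 to 5.90 for Bcas1, 1.96 for Fyn, 1.66 for Tmem163, 1.44 for Tcf7l2, 1.26 for Bmp4, 0.795 for Itpr2, 0.683 for Enpp6, 0.259 for Rras2 and 0.0161 for Casr. Introns were counted, and Gpr17 is a short gene with 78.2% of its span exonic, whereas exons make up 31.4% of Bmp4 and 2.22% to 6.89% of the span of the other 8 genes.

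By nuclei with at least 1 UMI, Gpr17 was read in 24.7% and 58.3% of OPCs in WT and 29.2% and 57.3% in TRα1+m. In oligodendrocyte nuclei the share was only 1.40% and 1.79% in WT and 1.07% and 0.778% in TRα1+m. Astrocyte nuclei of the same libraries were at 0.942% and 1.07% in WT and 1.29% and 0.756% in TRα1+m. Free RNA was not measured, and its part in these low shares was not tested. Enpp6 was read in 9.69% to 22.5% of oligodendrocyte nuclei and in 3.01% to 5.23% of OPC nuclei, both above the 0.489% to 0.857% of astrocytes. Nuclei differ in depth between the clusters, with a median of 1683 to 2212 UMIs in astrocytes, but the order held for Enpp6 when each nucleus was thinned to 900 UMIs, with 6.40% to 13.7%, 1.13% to 3.39% and 0.178% to 0.454% in oligodendrocytes, OPCs and astrocytes.

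Enpp6 (chr8:46986887-47096762, GRCm38, plus strand) had the largest log2 fold change of the 9 members tested between genotypes in OPCs. It had 38.4 and 56.0 CPM in the WT libraries of repeats 1 and 2 and 80.4 and 126 CPM in the TRα1+m libraries. Both mutant libraries lay above both WT libraries, and the mutant level was 2.09-fold and 2.24-fold that of WT within the repeats. The log2 fold change was 1.08 ± 0.27 (SE), at an unadjusted p of 0.0034 and an adjusted p of 1.00 over 11248 genes in edgeR's quasi-likelihood test without a block. With the repeat as a block, which the design provides, the log2 fold change was 1.08 ± 0.19 at an adjusted p of 9.3e-06 in edgeR, while DESeq2 with the same block gave 1.07 ± 0.37 at an adjusted p of 1.00. Without a block, edgeR also called Enpp6 when low counts were not filtered, as given below. The call thus depended on the tool, the block and the filter. DESeq2 with the block called 0.00973% of all genes in OPCs and 1.39% in oligodendrocytes. In astrocytes Enpp6 was also higher in both mutant libraries, at 3.93 and 4.23 CPM against 3.33 and 2.06 CPM in WT. These are 11 to 21 UMIs per library, and the share of all genes without overlap was not counted there. The genotypes overlapped in microglia and macrophages and in the main neuronal cluster. The part of free RNA in the Enpp6 values was not tested.

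In oligodendrocytes Enpp6 had 81.4 and 127 CPM in WT and 103 and 188 CPM in TRα1+m. The groups overlapped, but the mutant was higher within each repeat, 1.27-fold and 1.48-fold. The log2 fold change was 0.56 ± 0.35 (adjusted p 1.00, edgeR without a block) and 0.53 ± 0.15 with the repeat as a block (adjusted p 0.023 in edgeR and 0.90 in DESeq2). The value without a block was 0.03 without TRα1+m replicate 2, 0.29 without WT replicate 1, 0.89 without WT replicate 2 and 0.94 without TRα1+m replicate 1. The genotype difference was smaller than in OPCs by 0.53 ± 0.21 on the log2 scale, a contrast that did not pass the test of the interaction (edgeR, adjusted p 0.70 over 13152 genes).

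Tcf7l2 (chr19:55741820-55933654, plus strand) was the other member past the threshold with the block. OPC libraries held 310 and 140 CPM in WT and 418 and 234 CPM in TRα1+m, so that the groups overlapped while the mutant was higher within both repeats, 1.35-fold and 1.67-fold. Its log2 fold change was 0.49 ± 0.55 without a block (edgeR, adjusted p 1.00) and 0.53 ± 0.13 with it (edgeR, adjusted p 0.019; DESeq2, adjusted p 1.00). In oligodendrocytes the levels were 96.8 and 60.1 CPM in WT and 114 and 69.3 CPM in TRα1+m, which did not pass with or without the block (adjusted p 0.46 and 1.00 in edgeR).

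Fyn (chr10:39368855-39565381, plus strand) had 356 and 313 CPM in WT OPCs and 418 and 454 CPM in TRα1+m OPCs, without overlap. Its log2 fold change of 0.34 ± 0.17 did not pass the test (edgeR, adjusted p 1.00, and 0.29 with the block). In oligodendrocytes Fyn had 84.9 and 96.9 CPM in WT and 97.6 and 103 CPM in TRα1+m, again without overlap and with a log2 fold change of 0.21 ± 0.16 (edgeR, adjusted p 1.00). Fyn was also higher in both mutant libraries in microglia and macrophages, at 48.6 and 69.9 CPM in WT against 112 and 104 CPM. In the main neuronal cluster it was at 132 and 135 against 135 and 150 CPM. The genotypes overlapped in astrocytes, at 134 and 141 against 138 and 166 CPM. No test was run in these clusters.

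Bcas1 (chr2:170346991-170427845, minus strand) was lower in the mutant in oligodendrocytes without passing the test. There it had 468 and 511 CPM in WT and 306 and 391 CPM in TRα1+m, the mutant being at 0.653 and 0.765 of the WT level within the repeats. The log2 fold change was −0.42 ± 0.19 (edgeR, adjusted p 0.99), and −0.43 ± 0.16 with the block (adjusted p 0.12). It was −0.24 without TRα1+m replicate 1, −0.38 without WT replicate 2, −0.46 without WT replicate 1 and −0.63 without TRα1+m replicate 2. The share of nuclei with a Bcas1 UMI was 48.6% and 57.1% in WT and 35.7% and 44.8% in TRα1+m, and in nuclei thinned to 900 UMIs it was 32.8% and 36.3% against 23.0% and 27.0%. The exact two-sided permutation test over libraries gave p = 0.333 for both, the smallest that 2 libraries against 2 allow. In astrocyte nuclei the share was lower in TRα1+m too, at 8.27% and 6.49% in WT against 5.53% and 6.35%. It was also lower in nuclei of the main neuronal cluster, at 7.73% and 8.66% in WT against 5.02% and 4.97%. In microglia and macrophages the shares overlapped, at 8.74% and 7.26% in WT against 5.13% and 7.40%. In astrocyte nuclei thinned to 900 UMIs the shares were 3.93% and 2.35% against 2.73% and 2.52%, with overlap. The part of free RNA in the difference was not tested. In OPCs Bcas1 was at 478 and 411 CPM in WT and 431 and 590 CPM in TRα1+m, with overlap, and the difference between the cell types was −0.56 ± 0.19 on the log2 scale (edgeR interaction, adjusted p 0.47).

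Astrocyte and neuron transcripts in the oligodendrocyte sums moved with these libraries too. The 8 astrocyte markers together were at 1247, 943, 1616 and 791 CPM in the WT repeat 1, WT repeat 2, TRα1+m repeat 1 and TRα1+m repeat 2 libraries, and the 8 neuron markers at 1596, 1599, 1624 and 1158 CPM, with no marker at 0. With the block 1 of the 8 astrocyte markers passed in oligodendrocytes, against 4.35% of all genes. It was the glutamate transporter gene Slc1a3, at 247 and 207 CPM in WT and 359 and 267 CPM in TRα1+m (log2 fold change 0.52 ± 0.16, edgeR, adjusted p 0.032). In OPCs 1 of their own 8 markers passed with the block, against 0.569% of all genes. The proteoglycan gene Vcan was lower, at 910 and 981 CPM in WT and 662 and 749 CPM in TRα1+m (log2 fold change −0.46 ± 0.10, edgeR, adjusted p 0.0019). Median log2 fold changes with the block were 0.03 over the 8 astrocyte markers and −0.05 over the 8 OPC markers. Without a block 0 markers of these 2 lists passed there in edgeR or DESeq2. The part of these genes in the members' values was not tested. Leaving out nuclei with at least 3 distinct genes of another marker list removed 366 to 860 oligodendrocyte nuclei and 331 to 488 OPC nuclei per library. It kept 756 to 1047 oligodendrocyte nuclei but only 91 to 191 OPC nuclei per library, so that most OPC nuclei were dropped. In oligodendrocytes the loss was uneven, at 860 of 1685 nuclei in TRα1+m repeat 1 and 366 of 1413 in TRα1+m repeat 2. In what was left, with the block, Enpp6 had a log2 fold change of 1.27 ± 0.27 in OPCs, past the threshold (edgeR, adjusted p 0.012), and of 0.68 ± 0.18 in oligodendrocytes, which missed it (adjusted p 0.064). In these fits 0.160% and 2.35% of all genes were called in OPCs and oligodendrocytes, and the log2 fold change of Tcf7l2 in OPCs was 0.10 (adjusted p 1.00).

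The remaining members did not pass any of these tests. In OPCs the log2 fold changes were 0.16 or less in size for Bmp4, Gpr17, Itpr2, Tmem163 and Bcas1 with either design and 0.20 ± 0.47 for Rras2. In oligodendrocytes Itpr2 and Tmem163 had −0.10 ± 0.29 and 0.19 ± 0.20, and Rras2 −0.39 ± 0.44. Gpr17 was lower in both mutant libraries there, at 6.65 and 4.36 CPM against 9.65 and 9.21 CPM. These are only 11 to 25 UMIs per library. Astrocytes had 7.12 and 3.52 CPM of Gpr17 in TRα1+m and 5.20 and 4.50 CPM in WT. The part of free RNA in the Gpr17 difference was not tested.

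**Figure D2:**
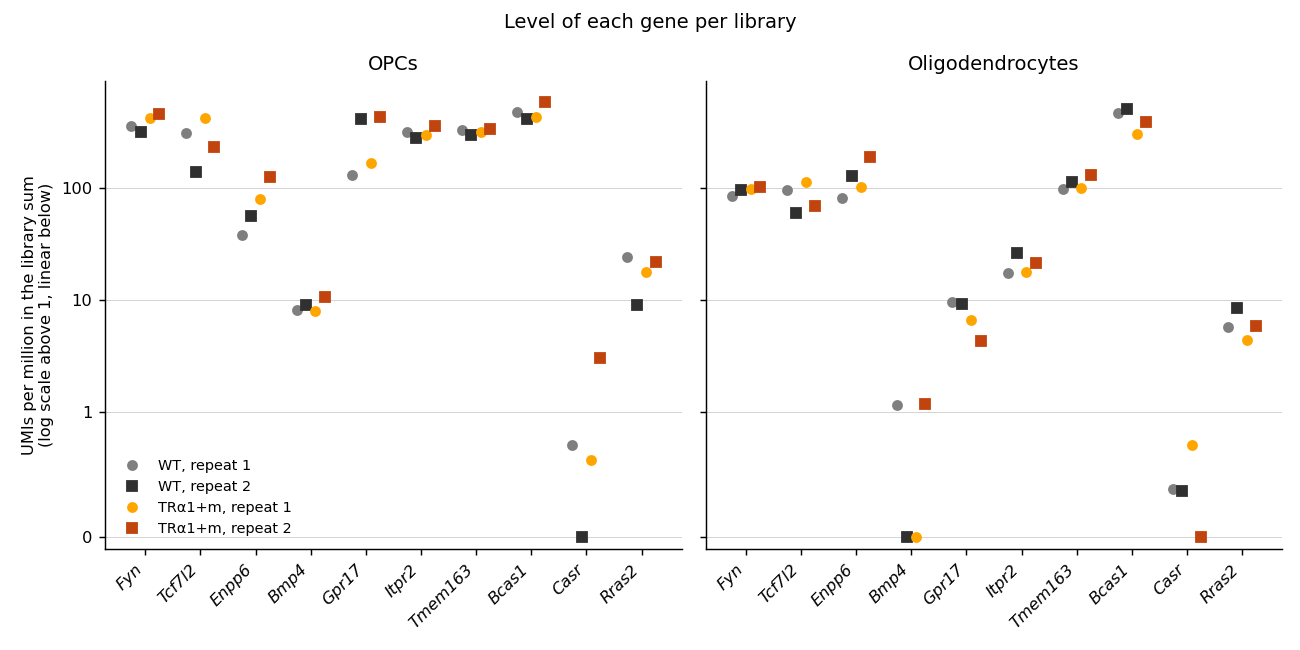
CPM of the 10 genes in each of the 4 libraries, in OPCs (left) and oligodendrocytes (right), on a log scale above 1 and a linear one below; circles are repeat 1 and squares repeat 2, grey and black are WT and orange and brown TRα1+m. Enpp6 in OPCs is at 38.4 and 56.0 in WT and at 80.4 and 126 in TRα1+m, and Gpr17 in OPCs splits by repeat.

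Counted over the list, 0 of the 9 members tested in OPCs and 0 of the 8 tested in oligodendrocytes passed in edgeR without a block, with 1 and 0 at an unadjusted p under 0.05. In DESeq2 without a block 0 members passed in either cell type, also with 1 and 0 at an unadjusted p under 0.05. Over all genes edgeR without a block called 0% of 11248 in OPCs and 0.103% of 12630 in oligodendrocytes, with 1.64% and 5.32% at an unadjusted p under 0.05. DESeq2 called 0.00487% and 0.531%. Without a filter on low counts Enpp6 alone of the members passed in OPCs (edgeR, adjusted p 0.015), as did 0.0535% of all genes. Casr was below the filter on low counts in both cell types and Bmp4 in oligodendrocytes. With the repeat as a block, 2 of 9 passed in OPCs, where 0.569% of all genes did, and 1 of 8 in oligodendrocytes, where 4.35% did. A bias-adjusted form of the same fit called 0.498% and 4.09% of all genes and the same 2 and 1 members. The median log2 fold change was 0.15 over the 9 members in OPCs and 0.05 over the 8 in oligodendrocytes, with medians of 0.00 and 0.01 over all genes. Mutant libraries were above WT without overlap for 2 members in OPCs (Fyn and Enpp6), against 16.3% of all genes tested, and for 1 in oligodendrocytes (Fyn), against 11.7%. They were below WT without overlap for 0 members in OPCs, against 11.1%, and for 2 in oligodendrocytes (Gpr17 and Bcas1), against 20.6%. In either direction this is 2 of 9, against 27.3%, and 3 of 8, against 32.3%. By the share of nuclei with at least 1 UMI, the genotypes did not overlap for 2 of the 10 members in OPCs (Enpp6 and Bmp4), against 22.6% of all genes tested, and for 2 in oligodendrocytes (Gpr17 and Bcas1), against 26.6%. With at least 2 UMIs it was 1 member in each (Enpp6 and Bcas1), against 24.8% and 25.3%. In thinned nuclei it was 3 in OPCs (Fyn, Enpp6 and Tmem163), against 29.2%, and 4 in oligodendrocytes (Gpr17, Tmem163, Bcas1 and Rras2), against 32.3%. Within both repeats the mutant was above WT for 4 members in OPCs (Fyn, Tcf7l2, Enpp6 and Gpr17), against 32.0%, and for 4 in oligodendrocytes (Fyn, Tcf7l2, Enpp6 and Tmem163), against 22.3%. It was below WT in both for 0 members in OPCs, against 21.4%, and for 3 in oligodendrocytes (Gpr17, Bcas1 and Rras2), against 35.2%. The interaction of genotype and cell type was past the threshold for 0 of the 9 members and 0.403% of all genes (edgeR; also 0 members with the block, against 0.623%), with Enpp6 and Bcas1 the 2 at an unadjusted p under 0.05. No DESeq2 test of the interaction was run.

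**Figure D3:**
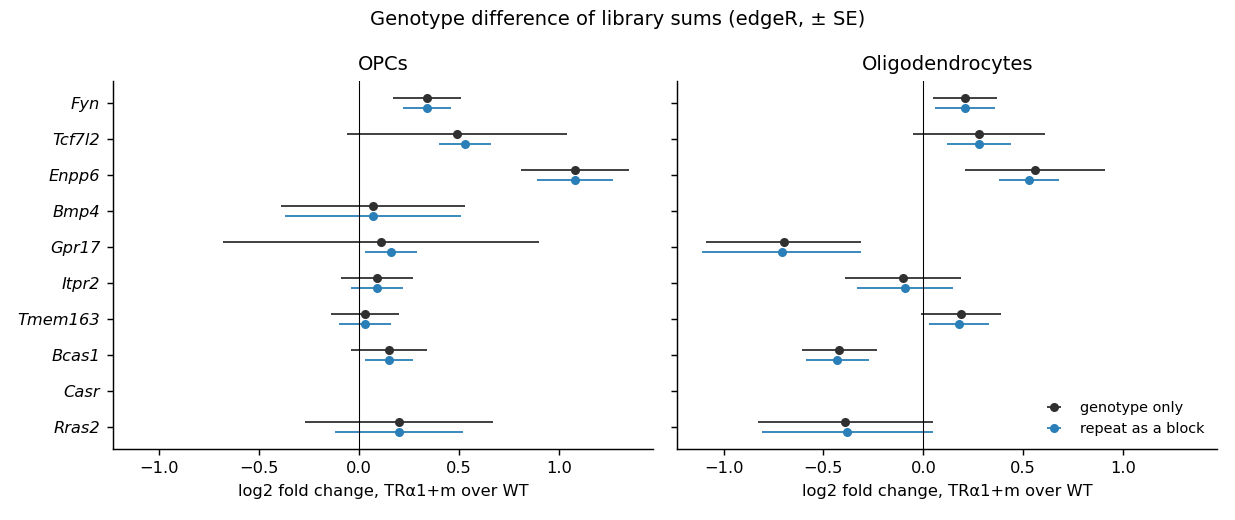
Log2 fold change of TRα1+m over WT with its SE for the members tested, from edgeR on library sums, without (black) and with (blue) the repeat as a block. Enpp6 in OPCs is farthest from 0 at 1.08, and Bcas1 and Gpr17 lie on opposite sides of 0 from Enpp6 in oligodendrocytes.

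The Enpp6 difference in OPCs was carried by few nuclei. Of the Enpp6 UMIs of the OPC cluster, 73.1% and 89.2% in WT and 93.8% and 93.3% in TRα1+m came from nuclei with 3 or more Enpp6 UMIs. There were 7 and 9 such nuclei in WT, which is 1.32% and 2.13% of the OPC nuclei, and 23 and 18 in TRα1+m, which is 3.39% and 3.77%. The groups did not overlap, with a difference of 1.85 points between means of 1.73% ± 0.576 and 3.58% ± 0.268 (SD, n = 2 each) and an exact permutation p of 0.333, the smallest possible here. The limit of 3 UMIs was chosen after the values had been seen. With 2 or 5 UMIs as the limit the shares did not overlap either, at 2.26% and 2.84% against 3.53% and 4.60%, and at 0.942% and 1.18% against 2.21% and 3.14%. In nuclei thinned to 900 UMIs the shares with 2 or more were 0.377% and 0.948% against 1.47% and 2.72%, without overlap. With 3 or more after thinning they overlapped, on 0 and 1 nuclei in WT and 1 and 6 in TRα1+m. No astrocyte nucleus of 9535 held 3 Enpp6 UMIs, which allows a share of up to 0.0315%.

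Apart from Enpp6, which set the rule, these 57 OPC-cluster nuclei held every member but Casr more often than the other OPC nuclei. All 57 held Fyn and Bcas1, against 40.4% and 49.6% of the other 2053 OPC nuclei. Tcf7l2 was read in 91.2% against 33.0%, Itpr2 in 89.5% against 47.9%, Tmem163 in 82.5% against 44.6%, Gpr17 in 66.7% against 39.5%, Bmp4 in 35.1% against 0.779% and Rras2 in 21.1% against 3.02%. Gpr17 differed by repeat, in 2 of 7 WT and 12 of 23 TRα1+m nuclei in repeat 1. In repeat 2 it was in 9 of 9 and 15 of 18. Casr was in 0 of the 57, which allows up to 5.26%. The median depth was 3527 UMIs in these nuclei and 2460 in the others. The part of depth in these shares was not tested, while CPM levels are divided by it. Fyn stood at 3368 against 268 CPM, Tcf7l2 at 2295 against 203 CPM, Bcas1 at 3317 against 361 CPM, Tmem163 at 1496 against 273 CPM and Bmp4 at 135 against 3.90 CPM.

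The same nuclei differed from the other OPC nuclei in precursor and myelin genes. Pdgfra, the receptor that defines OPCs, was at 23.2 CPM against 852 CPM in the other OPC nuclei, and the proteoglycan gene Cspg4 at 23.2 against 301 CPM. Over the whole list of 8 OPC markers 2 were higher in these nuclei, and the sum was 13071 against 14492 CPM. Of the 8 oligodendrocyte markers 6 were higher, with a sum of 9128 against 1211 CPM. Among them Mag, a gene of myelin, was at 632 against 44.2 CPM and Mobp at 177 against 94.2 CPM, while Opalin and Ermn were the 2 lower ones, both at 9.29 CPM against 16.1 and 18.0 CPM. The 8 neuron markers were all lower in these nuclei, 669 against 1700 CPM when summed, and the 8 astrocyte markers summed to 1259 against 1703 CPM, with 5 of the 8 higher. Of 19 further genes listed for newly formed oligodendrocytes 18 were higher in these nuclei, among them Tmem108 at 3405 against 207 CPM, Nfasc, which encodes neurofascin, at 3535 against 162 CPM, and Tns3 at 1788 against 225 CPM, and only Ctps was lower, on 3 UMIs. The share of all genes higher in these nuclei is not given here.

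These nuclei were also read by a gene that is not a member but is among the further genes listed for newly formed oligodendrocytes. Of the members 6 were listed as stage-restricted (Gpr17, Bmp4, Enpp6, Casr, Tmem163, Itpr2), a name that did not hold for all of them here. Pooled over libraries, Itpr2, Tmem163 and Gpr17 were read in 49.1%, 45.6% and 40.2% of OPC nuclei. The gene that led nuclei with at least 3 of these 6 over the remaining nuclei of both clusters was the long non-coding RNA 9630013A20Rik. It was followed by Frmd4a, at 4302 against 226 CPM, and by Gm13187, Gm36988, 9530059O14Rik, Pik3r3, Ust, Tmem108, Cemip2 and Cnksr3. The ratios of these 9 genes were 5.89 to 18.3 with 10 CPM added to both levels. Of the 306 nuclei with at least 3 of the 6 genes 295 were of the OPC cluster, so these ratios hold the difference between the clusters as well, and the summed OPC markers were at 14156 against 4591 CPM. Within the OPC cluster alone that sum was 14717 against 14376 CPM. Taking OPC nuclei with 3 or more 9630013A20Rik UMIs gave 71 nuclei, of which 45 were among the 57 with Enpp6. As this RNA was picked for its company with the members, what follows is a description. The 71 nuclei were 3.36% of the OPC nuclei and 4.57% of the OPC UMIs, yet held 79.8% of the Enpp6 UMIs of the cluster, 56.0% of Bmp4, 41.7% of Rras2, 39.9% of Tcf7l2, 33.5% of Fyn, 26.9% of Bcas1 and 21.2% of Tmem163. Only 12.3% of the Itpr2 and 10.3% of the Gpr17 UMIs were in them, so that these 2 genes were spread over the OPC cluster.

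**Figure D4:**
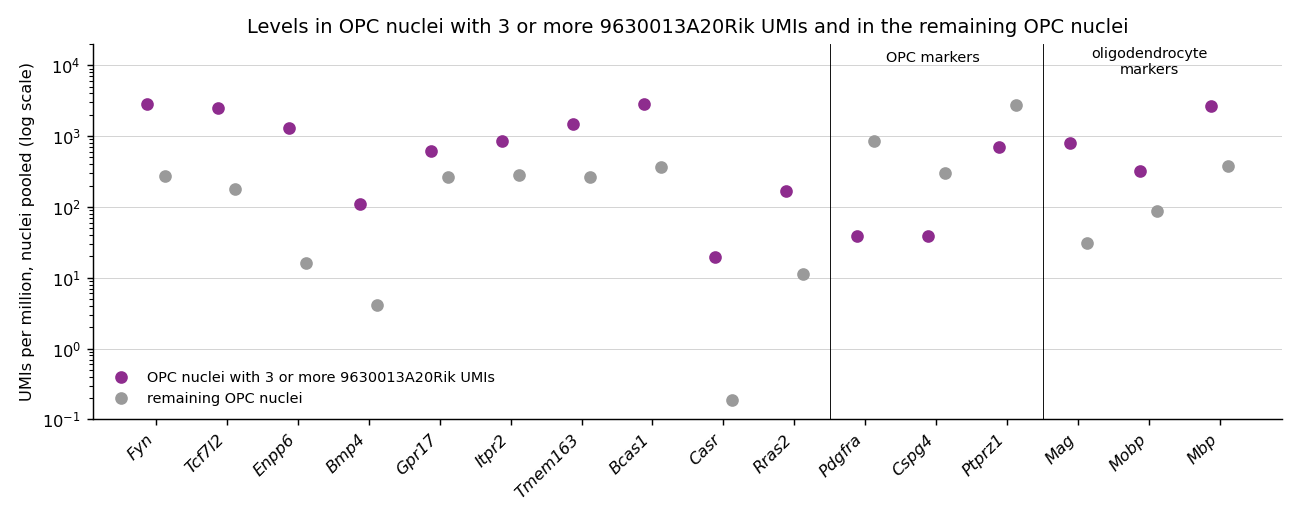
CPM (log scale, nuclei of the 4 libraries pooled) of the 10 genes and of 3 OPC and 3 oligodendrocyte markers, in the 71 OPC nuclei with 3 or more 9630013A20Rik UMIs (purple) and in the remaining OPC nuclei (grey). Enpp6 is at 1313 against 15.9, Gpr17 at 625 against 261, Pdgfra at 39.1 against 857 and Mag at 805 against 31.4. Over all 8 OPC markers 2 were higher in the 71 nuclei, with a sum of 12003 against 14554. Over all 8 oligodendrocyte markers 5 were higher, with a sum of 9092 against 1153.

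By library these nuclei were 17 and 9 in WT and 29 and 16 in TRα1+m, or 3.20% and 2.13% against 4.27% and 3.35% of OPC nuclei. Both mutant shares were above both WT shares, at an exact permutation p of 0.333 and with wide counting intervals (for example 1.88% to 5.08% for the first WT library, exact Clopper-Pearson at 95%). Within the nuclei, Enpp6 was at 620 and 1128 CPM in WT and 1244 and 2349 CPM in TRα1+m. In the remaining OPC nuclei Enpp6 was at 7.78 and 22.6 CPM in WT and 11.8 and 22.3 CPM in TRα1+m, with overlap. Fyn in the remaining nuclei was at 235 and 264 CPM against 265 and 317 CPM, the nearest WT and TRα1+m libraries being almost level. Tcf7l2 there was at 177 and 124 CPM against 248 and 150 CPM, with overlap. When the nuclei with 3 or more Enpp6 UMIs were left out, the log2 fold change of Tcf7l2 with the block was 0.28 (edgeR, adjusted p 0.70) and that of Fyn 0.11 (adjusted p 0.94). In sums over a cluster, more nuclei of a kind and more RNA per nucleus cannot be told apart.

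**Figure D5:**
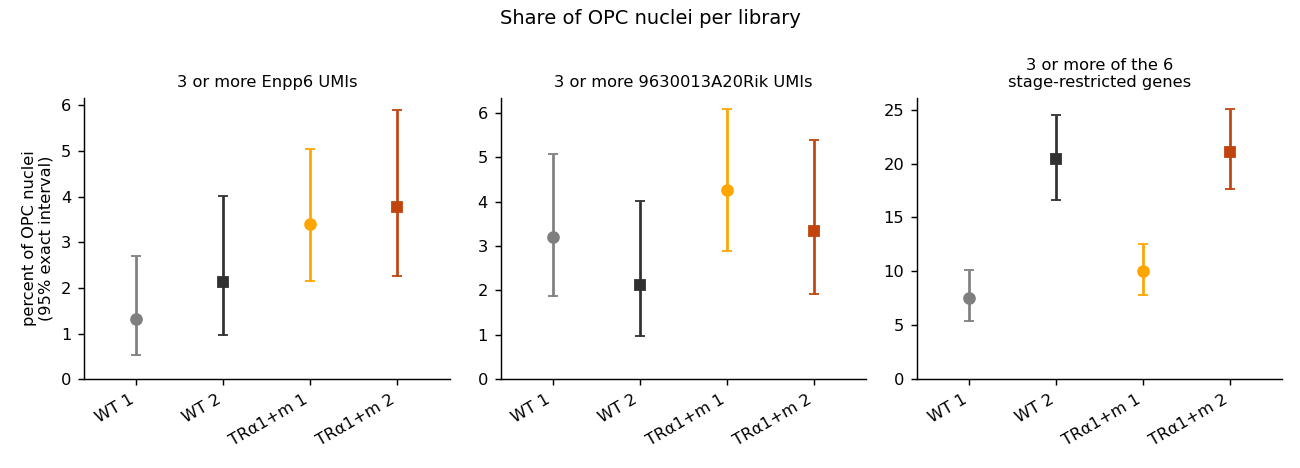
Percent of OPC nuclei per library with 3 or more Enpp6 UMIs, with 3 or more 9630013A20Rik UMIs, and with 3 or more of the 6 stage-restricted genes, with exact 95% intervals that cover counting error only. The first 2 are higher in both TRα1+m libraries. The third is higher in repeat 2 in both genotypes, from 7.53% to 20.4% in WT and from 10.0% to 21.1% in TRα1+m.

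Enpp6 in the oligodendrocyte cluster belonged to other nuclei. There, 78 nuclei held 3 or more Enpp6 UMIs, 10 and 21 in WT and 12 and 35 in TRα1+m, and the UMIs were otherwise thinly spread, with 13.6% to 26.3% of them in such nuclei. After thinning to 900 UMIs, 2 and 0 nuclei in WT and 0 and 0 in TRα1+m still held 3 or more. Gpr17 and Bmp4 were in 0 of the 78, which allows up to 3.85%. They were in only 1.27% and 0.0991% of the other oligodendrocyte nuclei, so these zeros show no difference. Tcf7l2 and Tmem163 were read in 11.5% and 8.97%, against 12.7% and 14.4% of the other oligodendrocyte nuclei. Fyn was read in 17.9% against 14.0%, Bcas1 in 57.7% against 46.0%, Itpr2 in 5.13% against 3.04% and Rras2 in 2.56% against 0.991%. The median depth was 2349.5 UMIs in the 78 nuclei and 1599 in the others, and its part in these shares was not tested. By CPM 6 of the 10 members were higher in these nuclei, Enpp6 through the rule itself. The genes that led them were A530053G22Rik at 653 against 54.5 CPM, the kallikrein gene Klk6 at 338 against 29.7 CPM and Dlc1 at 381 against 51.6 CPM. Of the genes listed for newly formed oligodendrocytes 10 of 19 were higher in them. Only 12 oligodendrocyte nuclei reached 3 UMIs of 9630013A20Rik.

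Nuclei with 3 or more of the 6 stage-restricted genes numbered 40 and 86 in WT OPCs and 68 and 101 in TRα1+m OPCs, or 7.53% and 20.4% against 10.0% and 21.1%. The shares overlapped (exact permutation p = 0.667) and were higher in repeat 2 in both genotypes. In OPC nuclei thinned to 900 UMIs they were 0.942% and 3.55% in WT and 2.06% and 3.97% in TRα1+m. The part of depth in the difference between repeats was not tested further. In oligodendrocytes there were 0, 4, 2 and 5 such nuclei in the same order, and in astrocytes 1 in each library. The 0 in the first WT library allows up to 0.183% of its 1641 nuclei.

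Between the repeats 3 members passed the test in OPCs (Gpr17, Tcf7l2 and Enpp6) and 2 in oligodendrocytes (Tcf7l2 and Enpp6). Gpr17 in OPCs was 3.17-fold higher in repeat 2 in WT and 2.60-fold in TRα1+m, a log2 difference of 1.44 ± 0.14 in a model with genotype (edgeR, adjusted p 1.2e-23; DESeq2, adjusted p 5.0e-07). Tcf7l2 in OPCs was lower in repeat 2, with ratios of 0.451 and 0.558 and a log2 difference of −1.06 ± 0.13 (edgeR, adjusted p 5.2e-13; DESeq2, adjusted p 0.00098). In oligodendrocytes Tcf7l2 had −0.71 ± 0.16 (edgeR, adjusted p 0.00051) and Enpp6 0.75 ± 0.15 (edgeR, adjusted p 0.00014), which DESeq2 placed at 0.17 and 0.052. Enpp6 in OPCs had 0.53 ± 0.19 (edgeR, adjusted p 0.040; DESeq2, adjusted p 1.00). The repeat effect called 3 of 9 members in OPCs, against 11.4% of all genes, and 2 of 8 in oligodendrocytes, against 12.4% (edgeR). DESeq2 called 2 in OPCs, against 2.45% of all genes, and 0 in oligodendrocytes, against 4.08%.

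Tcf7l2 was lower in repeat 2 in other clusters as well. In astrocytes it went from 494 to 339 CPM in WT and from 528 to 381 CPM in TRα1+m, and in microglia and macrophages from 294 to 155 and from 324 to 199 CPM. Gpr17 in astrocytes was not higher in repeat 2, with 5.20 and 4.50 CPM in WT and 7.12 and 3.52 CPM in TRα1+m. The 8 oligodendrocyte markers in oligodendrocytes also went up in repeat 2, from 11512 to 20227 CPM in WT and from 10354 to 23926 CPM in TRα1+m. What in the repeats moved these genes was not tested.

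Further genes of the same stage and of the pathways of the members were read from 4 lists. Of 19 other genes listed for newly formed oligodendrocytes, 18 were tested in OPCs and 16 in oligodendrocytes, and 0 passed without a block (edgeR; also 0 in DESeq2), with median log2 fold changes of 0.15 and 0.05. The genes that passed only with the block are named after their values were seen. 9630013A20Rik passed in OPCs, at 396 and 115 CPM in WT and 397 and 281 CPM in TRα1+m (log2 fold change 0.53 ± 0.13, edgeR, adjusted p 0.018), a gene that differed by −1.16 ± 0.13 between the repeats. That is 1 of 18, against 0.569% of all genes. The level of 9630013A20Rik was alike between genotypes in repeat 1 (396 and 397 CPM), so the difference lay in repeat 2. Without the block its log2 fold change was 0.36 ± 0.74 (edgeR, unadjusted p 0.66). In oligodendrocytes 4 of 16 passed with the block, against 4.35% of all genes. The small GTPase gene Rap2a went from 27.0 and 31.3 CPM in WT to 47.7 and 81.2 CPM in TRα1+m (adjusted p 2.5e-06), Tns3 from 96.8 and 85.5 to 136 and 160 CPM (adjusted p 0.00022), and Nfasc from 387 and 579 to 552 and 927 CPM (adjusted p 0.0031). The sulfotransferase gene Ust fell, from 65.6 and 61.2 to 35.8 and 36.0 CPM (adjusted p 0.0038, all edgeR).

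These counts, and those without a block that follow, stand against 0% of 11248 genes in OPCs and 0.103% of 12630 in oligodendrocytes, and the single genes named with the block in oligodendrocytes against 4.35%. For the pathway of Bmp4, 0 of 12 genes tested in OPCs and 0 of 16 in oligodendrocytes passed without a block. The receptor genes Bmpr2 and Bmpr1a, with 146 to 163 and 102 to 124 CPM in OPCs, had log2 fold changes of −0.09 ± 0.17 and −0.17 ± 0.20. With the block the inhibitory Smad gene Smad6 passed in oligodendrocytes, on 0 and 2 UMIs in WT and 14 and 19 UMIs in TRα1+m (edgeR, adjusted p 0.00019). For the Wnt pathway of Tcf7l2, 0 of 13 genes passed in either cell type without a block in edgeR, and Tcf7l1, a relative of Tcf7l2, passed in DESeq2 and with the block in oligodendrocytes, at 7.33 and 12.5 CPM in WT and 31.4 and 47.5 CPM in TRα1+m (log2 fold change 2.06 ± 0.25, edgeR, adjusted p 2.5e-10). Apc and Gsk3b, parts of the complex that degrades β-catenin, were at −0.06 ± 0.17 and −0.15 ± 0.16 in oligodendrocytes. Among paralogs of the members, 0 of 8 and 0 of 10 passed without a block, and Enpp2, the relative of Enpp6 that is most abundant in oligodendrocytes at 1937 CPM, had 0.14 ± 0.27. With the block Itpr1, a relative of Itpr2, was lower in mutant oligodendrocytes, at 36.6 and 43.6 against 57.1 and 71.5 CPM (edgeR, adjusted p 0.027).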

How the data were processed

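Nuclei of snap-frozen hypothalamus were sequenced with the 10x protocol 3.1. Per the labels, the authors counted reads with Cell Ranger 5.0.1 on mm10, with introns included per the methods, and clustered nuclei in Seurat after limits on UMIs, genes, mitochondrial share and doublet score. The deposited values are raw UMI counts per gene and nucleus, and the deposited cluster names were used as given. Doublets were not called again.

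Counts were summed per library and cluster. edgeR 4.0.16 (R 4.3.3; filterByExpr, TMM, robust quasi-likelihood test, two-sided, Benjamini-Hochberg over all genes, threshold 0.05) was the main test, without the repeat. DESeq2 1.42.0 was the alternative. The model was tested on simulated counts. The methods place a library of each genotype in each repeat, and the differences between repeats correlated between genotypes (r 0.541 over 12630 genes in oligodendrocytes and 0.495 over 11248 in OPCs), so the block with the repeat is given beside each result it changed. Without the block the p-values rest on the spread between 2 pools per genotype. With it they rest on how far the genotype difference varied between the repeats. The block leaves the fewest residual degrees of freedom that still allow a spread to be fitted. In both designs the spread of a gene is drawn toward that of other genes, so the p-values with the block rest on those genes too. Shares were compared by an exact permutation test over libraries, and nuclei were also thinned to 900 UMIs (none was below). Intervals and zero limits (3 counts) cover counting error only. The genes and lists were chosen with earlier results of these data known. Named besides the 10 genes were the 3 most abundant genes of each list, genes of the 4 lists past the threshold in either design, and the 10 genes leading nuclei with 3 or more of the 6 stage-restricted genes. Those of the most abundant not printed were not called between genotypes in either design. Python 3.11.15, numpy, scipy and pandas were used for sums and shares.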

Additional observations from a re-analysis of the deposited data

How the results depend on the processing

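With the repeat as a block 2 members were called in OPCs and 1 in oligodendrocytes (0 without it), with 64 and 550 genes called against 0 and 13. The same counts were 2 and 1 members and 56 and 517 genes with the bias-adjusted block, 1 and 0 members and 10 and 259 genes when nuclei with other markers were also left out, 0 and 1 members and 32 and 579 genes without nuclei of 3 or more Enpp6 UMIs, and 0 members and 2 and 142 genes with DESeq2 and the block. The combinations with the block and the Enpp6 limits were chosen after seeing the data. DESeq2 without the block called 1 and 72 genes, no filter 11 and 120 (1 member in OPCs), thinning 20 in oligodendrocytes. Leaving out a library gave 1 to 8 genes in OPCs and 0 to 196 in oligodendrocytes, 0 without WT replicate 2 and 196 without TRα1+m replicate 1. The interaction had 82 genes with the block and 45 to 87 with a library left out. DESeq2 gave 315 and 123 genes between repeats, with 0 members in oligodendrocytes. Members with shares that did not overlap were 2 in each cell type, 1 in each at 2 UMIs, 4 in oligodendrocytes when thinned, and 4 to 9 in OPCs and 5 to 7 in oligodendrocytes with a library left out. Leaving out a library can only keep or raise these counts, as 1 library then stands against 2. The share over all genes was not counted for that setting, so these counts say nothing about the members. The difference in OPC nuclei with 3 or more Enpp6 UMIs was 0.583 points when thinned, and that of oligodendrocyte nuclei with several genes 0.975 points with 1 gene fewer.

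Among members that were not called, log2 fold changes turned sign with nuclei of other markers left out for Itpr2 in oligodendrocytes (0.29, and 0.27 with the block) and in OPCs for Tcf7l2 (−0.07), Itpr2 (−0.09 and −0.10), Tmem163 (−0.06 in both) and Rras2 (−0.65 and −0.66). Thinning gave −0.01 for Itpr2 in OPCs. Without nuclei of 3 or more Enpp6 UMIs the OPC values were −0.34 for Enpp6, by construction, −0.08 for Tmem163 and −0.13 for Bcas1, with or without the block. With a library left out, oligodendrocyte values ran from −0.10 to 0.70 for Tcf7l2, −0.34 to 0.22 for Itpr2 and −0.04 to 0.38 for Tmem163. OPC values ran from −0.03 to 1.23 for Tcf7l2, −0.11 to 0.24 for Bmp4, −0.69 to 1.10 for Gpr17, −0.04 to 0.22 for Itpr2, −0.08 to 0.13 for Tmem163, −0.06 to 0.33 for Bcas1 and −0.37 to 1.13 for Rras2. Interaction values ran from −0.37 to 0.08 for Fyn, −3.20 to 3.35 for Bmp4, −1.74 to 0.19 for Gpr17, −0.59 to 0.26 for Itpr2, −0.06 to 0.38 for Tmem163 and −1.77 to 0.26 for Rras2. Except where a setting's construction shows it, the cause was not tested.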
